A study of Mus musculus with 30 samples.

Results

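Podoplanin-positive (PDPN+) stromal cells that shared a culture with macrophages in direct contact were compared with PDPN+ cells kept apart from the macrophages by a transwell membrane, through which soluble factors can pass while the cells do not touch. Both groups hold 3 libraries of polyA RNA, which makes 6 of the 30 libraries of this mouse series. Genes expressed more than 4 times higher in macrophages cultured alone than in PDPN+ cells cultured alone (mean CPM, the read count normalised to the TMM-scaled library total) were set apart, and the genes left are called stromal here. Of 50764 gene models, 5576 were set apart and 45188 were not. After edgeR's filter on low counts, 19134 genes were tested, 17513 of them stromal and 1621 set apart. Just inside the limit lay Ivns1abp, Nkiras2 and Slc35f6 (ratios of 3.98, 3.98 and 3.98), and just beyond it lay Slc27a1, Sh3bgrl3 and Ostm1 (4.01, 4.05 and 4.06).

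The groups are contact PDPN+ cells (labelled co), transwell PDPN+ cells (labelled tw) and, for orientation, PDPN+ cells cultured alone with no treatment (3 libraries each). The fit also holds 3 libraries of PDPN+ cells treated with BMS493, an inverse agonist of retinoic acid receptors, at 1 uM. These share in the estimate of the spread and enter no comparison here. The labels place all of these groups in the omentum, an abdominal fold of fat and serous lining. They describe the material as cultured in vitro and sorted on PDPN into lysis buffer. The sources used here do not give culture time, medium, cell ratio, membrane pore size or mouse strain, age and sex. Nothing in the labels says whether replicates came from separate animals or separate cultures, so each p measures only the spread between these libraries. Replicates 1, 2 and 3 of each group carry a batch label that is the same across groups, called batch 1, 2 and 3 here. For the contact co-culture of batch 1, the source name of each sorted fraction ends with the cell type of the other, against the titles and group labels, which were followed here. Adgre1, which encodes the F4/80 antigen of macrophages, lay at 40.1, 38.5 and 62.5 CPM in the contact PDPN+ libraries and at 2699 CPM or more in the macrophages sorted from the same cultures. The BMS493 libraries held 22.4, 67.1 and 40.4 CPM of it, against 0.708, 1.03 and 1.23 CPM in PDPN+ cells alone. Their titles do not say whether macrophages were present in the culture.

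Omental stroma contains fibroblasts and the mesothelium that lines the serous surface, both of which can display podoplanin, beside contractile cells of vessel walls. Such cells make collagen-rich matrix, secrete the growth factor Csf1 and chemokines that macrophages respond to, and carry Aldh1a2, the enzyme that makes retinoic acid from vitamin A. Macrophages in turn release cytokines that act at a distance, while Notch ligands and ephrins act mainly between touching cells.

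Sequencing depth was even, at 33486476 to 42084925 counts in contact and 34060513 to 35141747 counts in transwell libraries, with RNA integrity numbers of 9.6 to 10. Cell input was not. The contact libraries came from 25000, 3730 and 2148 sorted cells and the transwell libraries from 25000, 25000 and 19265. Transwell library 1 stood apart from the others of this comparison: genes with over 4000 exonic bases held 34.6% of its counts, against 51.9% to 59.3% in the other 5 libraries, and genes with under 1000 exonic bases held 8.85%, against 2.38% to 3.55%. PDPN+ alone library 3 showed the same profile (34.3% and 8.86%). The values that follow are therefore given mostly by library or batch. The part of cell input and of this length profile in the results was not tested.

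Macrophage transcripts were higher in contact than in transwell PDPN+ cells, and they hold the sole call of the comparison, 1 of 19134 genes (0.00523%) and 1 of 1621 set-apart genes (0.0617%). Cd84, an adhesion receptor of leukocytes (chromosome 1, 171839697 to 171890718, GRCm38, 1-based as all positions here), lay at 12.7, 16 and 12.3 CPM in contact libraries 1, 2 and 3 and at 1.04, 0.88 and 0.634 CPM in transwell libraries 1, 2 and 3. Every contact library was above every transwell library, and Cd84 rose 15.3-fold in contact cells (log2 fold change 3.94, SE 0.40, adjusted p = 0.0131, edgeR quasi-likelihood test, n = 3 each). Macrophages sorted from the contact cultures held 955 CPM of Cd84. Without contact library 1, contact library 2, transwell library 2 or transwell library 3 its adjusted p lay between 0.0587 and 0.212, a fit with batch as a block gave 0.0858, and leaving out both contact libraries from few cells gave 0.486.

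Itgam, the integrin alpha M chain of myeloid cells, gave 56.5, 58 and 58.5 CPM in contact libraries and 1.15, 0.374 and 1.31 CPM in transwell libraries (log2 fold change 5.87, SE 0.813, adjusted p = 0.0925). Lyz2, the lysozyme gene of macrophages and granulocytes, gave 2109, 1958 and 1376 CPM in contact libraries and 486, 37.8 and 69.1 CPM in transwell libraries (adjusted p = 0.687). Transwell library 1 was thus above the 2 other transwell libraries for Lyz2 but not for Itgam. Of the 19 pan-macrophage genes on the list, all of which fell under the set-apart rule, 11 were higher in every contact than in every transwell library. Of the 19, 0 passed the adjusted test and 10 had an unadjusted p under 0.05 (16.6% of set-apart genes were higher at that p). Cd14 (log2 fold change -0.49, SE 0.777) and Mertk (-0.24, SE 0.703) were fitted lower in contact, Mertk in all 3 batches. Over the 19 genes, the excess above PDPN+ cells alone amounted to 1.53%, 1.46% and 1.12% of the level in co-cultured macrophages in the contact libraries (median over genes) and to 0.386%, -0.00902% and -0.0106% in the transwell libraries. Among the 1621 set-apart genes tested, 393 (24.2%) were higher in every contact than in every transwell library and 18 (1.11%) were lower in every one, against 948 (5.41%) and 879 (5.02%) of the 17513 stromal genes. Without transwell library 1 these shares were 32.6% and 3.33% of set-apart genes, against 9% and 8.66% of stromal genes. The median log2 fold change was 0.53 for set-apart genes and -0.04 for stromal genes.

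**Figure D1:**
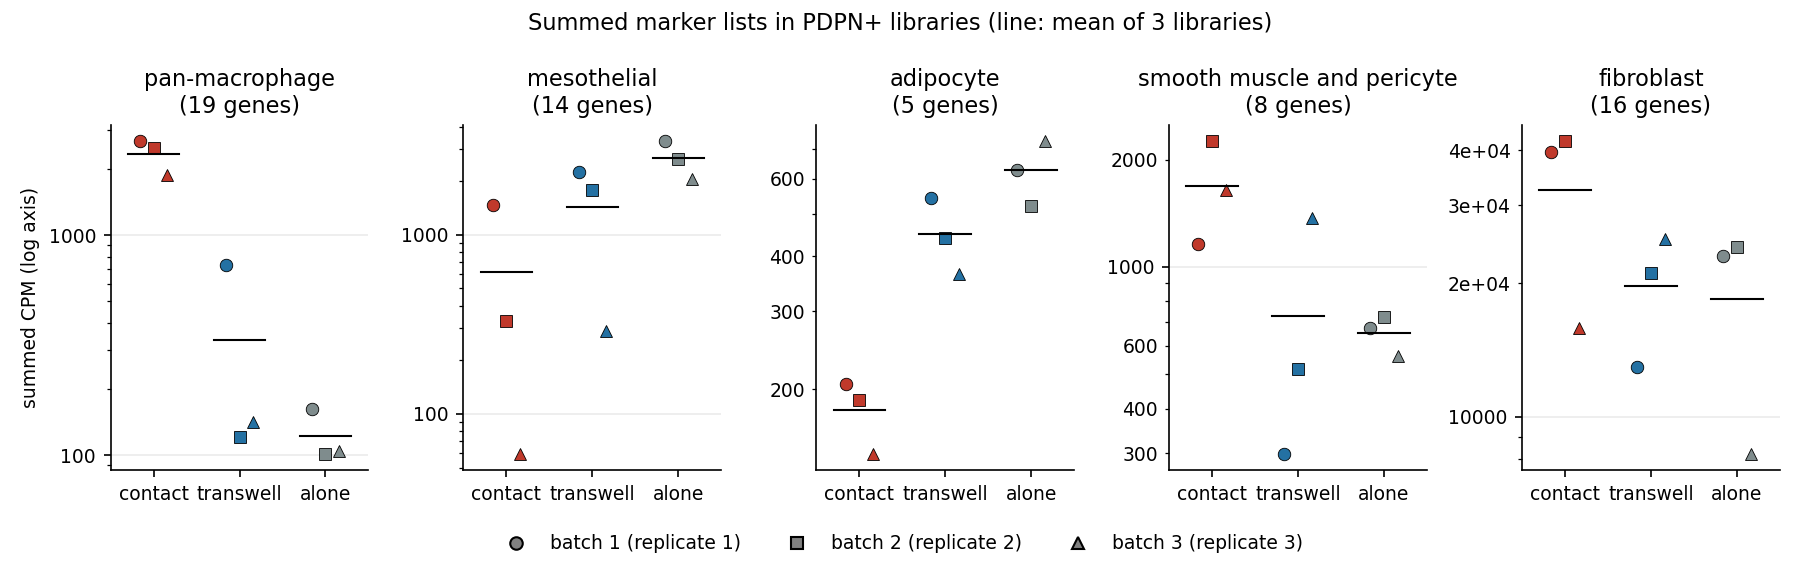
Summed CPM (log axis) of 5 marker lists in contact, transwell and alone PDPN+ libraries, with 1 point per library shaped by batch and a line at the mean of 3. Pan-macrophage sums lie at 2681, 2494 and 1878 CPM in contact and at 736, 122 and 141 CPM in transwell libraries, and the adipocyte sums of the 2 groups do not overlap either.

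Sorted PDPN+ cells carried the transcripts of several stromal cell types. Pdpn itself lay at 188, 91.3 and 136 CPM in contact libraries, 203, 163 and 149 CPM in transwell libraries and 194, 156 and 176 CPM in cells alone, so the groups overlapped. Fibroblast markers summed to 39694, 41974 and 15868 CPM in contact and 12948, 21119.7 and 25199.5 CPM in transwell libraries. Summed mesothelial markers lay at 1468, 330.4 and 59.2 CPM in contact, 2237, 1762 and 288 CPM in transwell and 3329.9, 2635 and 2043 CPM in alone libraries, which puts contact library 3 lowest of the 9. Msln, the mesothelin gene that defines mesothelium, stayed at or under 4.29 CPM in all 6 co-culture libraries and at or under 9.82 CPM alone. Smooth muscle and pericyte markers summed to 1160.1, 2258 and 1648 CPM in contact and 298, 517 and 1377 CPM in transwell libraries. B cell, T cell, granulocyte and mast cell lists summed to at most 5.93 CPM in any contact and 2.46 CPM in any transwell library, and the endothelial list, led by the VEGF receptor gene Kdr, to at most 90 and 12.4 CPM. Whether such marker sums reflect fewer cells of a type or less RNA per cell cannot be told apart in bulk libraries.

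No stromal gene passed the adjusted test in edgeR: 0 of 17513 in either direction. At an unadjusted p under 0.05 there were 247 stromal genes (1.41%) higher and 435 (2.48%) lower in contact cells. DESeq2 on the same genes called 36 stromal genes, 21 higher and 15 lower, with 1027 at an unadjusted p under 0.05, and a fit of the 6 libraries alone called 1 (Gm45740, a predicted gene). Genes higher in contact in all 3 batches numbered 3299 (18.8%) and genes lower in all 3 numbered 3170 (18.1%). The stromal genes given below are therefore values, ordered by rule, and not calls, and their direction is stated from the libraries themselves.

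**Figure D2:**
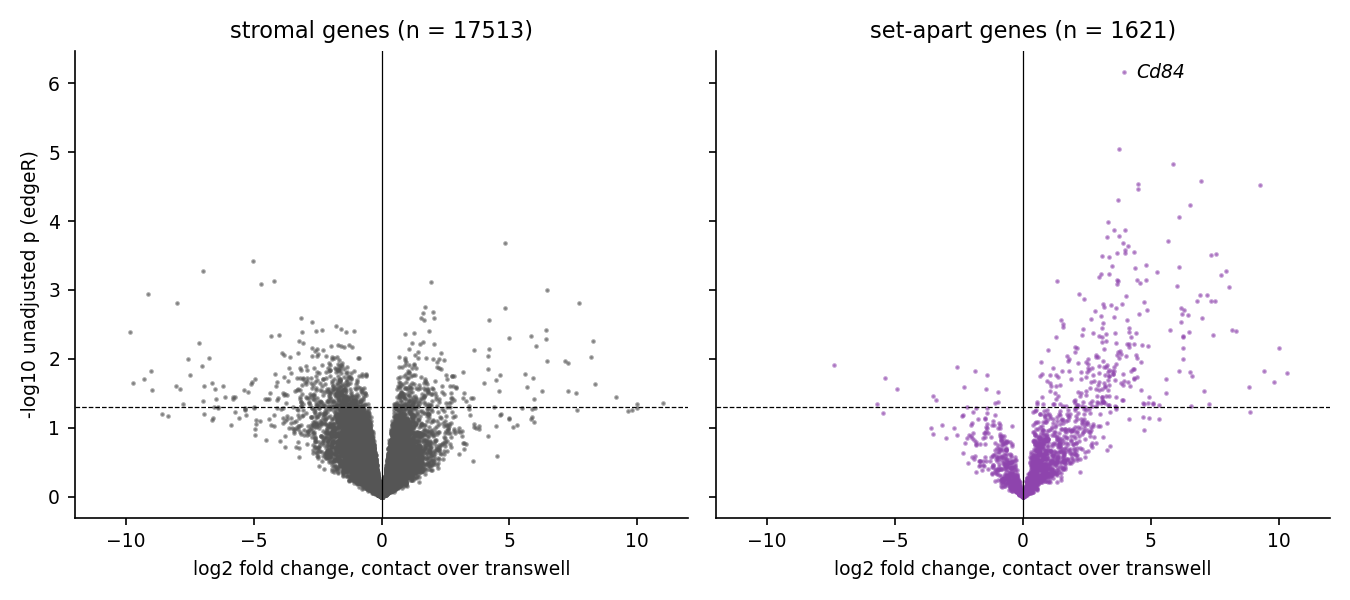
Log2 fold change of contact over transwell (x axis) against -log10 of the unadjusted edgeR p (y axis) for 17513 stromal genes (left) and 1621 set-apart genes (right), with 1 point per gene and a dashed line at p of 0.05. Set-apart points lie mostly to the right of 0 with Cd84 highest, while stromal points spread to both sides.

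The acute-phase genes Saa3 and Lcn2 were lower in every contact than in every transwell library. Saa3 encodes serum amyloid A 3, a secreted acute-phase protein of stromal cells and macrophages, and Lcn2 encodes lipocalin 2, which binds bacterial siderophores. Both are textbook targets of NF-kB and C/EBP factors downstream of interleukin 1 and tumor necrosis factor. Their upstream sequences are printed because the libraries of the 2 groups separated for both genes. The 250 bases before each start site come from RefSeq (GRCm38.p6), for Saa3 chr7:46715677-46715926 (minus strand) and for Lcn2 chr2:32387740-32387989 (minus strand). The RefSeq start of Saa3 lies slightly inside the gene model whose position is given with its values. Capitals mark matches, on either strand, to TTNNGNAA, a C/EBP-like motif.
Saa3: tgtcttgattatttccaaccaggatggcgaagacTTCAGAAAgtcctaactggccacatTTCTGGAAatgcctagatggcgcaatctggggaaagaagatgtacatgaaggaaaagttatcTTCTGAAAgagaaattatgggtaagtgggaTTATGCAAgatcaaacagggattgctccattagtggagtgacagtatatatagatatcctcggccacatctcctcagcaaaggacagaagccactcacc
Lcn2: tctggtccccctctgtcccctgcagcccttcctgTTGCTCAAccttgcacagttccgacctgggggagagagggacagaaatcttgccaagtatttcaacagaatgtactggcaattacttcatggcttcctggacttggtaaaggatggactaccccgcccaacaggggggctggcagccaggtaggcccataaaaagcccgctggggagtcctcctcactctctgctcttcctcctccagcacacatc
These letters occur 4 times before Saa3 and 1 time before Lcn2. Of 32851 RefSeq promoter windows of this length 36.8% hold the motif, so a match is common and only describes the letters.

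Saa3 (chromosome 7, 46711998 to 46715700) lay at 1613, 539 and 1527 CPM in contact libraries 1, 2 and 3, at 14515, 9209.6 and 9628 CPM in transwell libraries 1, 2 and 3, and at 2617, 2648 and 1632 CPM in cells alone. Each contact library was below each transwell library, and each transwell library was far above all alone libraries. The contact libraries were also below the alone libraries, contact library 1 narrowly so. The fitted log2 fold change was -3.24 (SE 0.947, unadjusted p = 0.0055, adjusted p = 0.784), and the log2 ratios in batches 1, 2 and 3 were -3.17, -4.09 and -2.66. Co-cultured macrophages themselves held 2316 CPM of Saa3.

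Lcn2 lay at 2.26, 0.543 and 14.2 CPM in contact libraries, at 28.7, 17.7 and 53.8 CPM in transwell libraries and at 6.74, 2.82 and 14.4 CPM alone (log2 fold change -2.61, SE 1.27, adjusted p = 0.805). The lowest transwell library was above the highest contact library. Saa1, a serum amyloid A gene with close copies among which reads may be divided, stayed under 1 CPM on average in both groups (0.0155 CPM in contact and 0.555 CPM in transwell cells) and was called by DESeq2 (adjusted p = 0.00855).

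The other stromal members of the NF-kB target list overlapped between the groups. Of 12 tested 0 were called, and 2 (Saa3 and Lcn2) were lower in every contact than in every transwell library (5.02% of stromal genes were). The median log2 fold change was -0.45 against -0.04 over all stromal genes, with -0.01, -0.52 and -0.40 in batches 1, 2 and 3. Among the 5 set-apart members, Nfkbie, another inhibitor of NF-kB, was higher in every contact library (log2 fold change 0.39, SE 0.413). Nfkbia, the inhibitor that NF-kB itself induces, gave 42.1, 48 and 146 CPM in contact libraries and 116, 83.1 and 129 CPM in transwell libraries, with library 3 of both groups near the same level. Sod2, the mitochondrial superoxide dismutase, gave 98.9, 91 and 251 CPM in contact libraries and 184, 240.1 and 364 CPM in transwell libraries. It was lower in contact within each batch, though the groups overlapped. Vcam1, the leukocyte adhesion molecule, was among the 2 list members of highest level and its log2 fold change was -0.03 (SE 0.541).

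Cytokine and chemokine genes separated the groups less. Cxcl16, a chemokine that exists as a membrane-bound and a shed form, lay at 60.8, 24.3 and 62 CPM in contact libraries and 224, 118 and 67.3 CPM in transwell libraries, without overlap (log2 fold change -1.55, SE 0.643, adjusted p = 0.805). Ccl2, which draws monocytes, gave 46.6, 42.2 and 365 CPM in contact libraries and 266, 333 and 362 CPM in transwell libraries: contact libraries 1 and 2 were far below all transwell libraries and contact library 3 was level with the highest of them. Cxcl1, which draws neutrophils, gave 5.84, 3.37 and 46 CPM in contact libraries and 33, 60.2 and 67.6 CPM in transwell libraries, lower in contact within each batch. In contact library 3, made from 2148 cells, the interleukin 6 gene Il6 reached 388 CPM and the cyclooxygenase 2 gene Ptgs2 reached 1122 CPM, but transwell library 3 of the same batch was also high (223 and 199.5 CPM). Of 23 stromal cytokine and chemokine genes tested 0 were called and 1 (Cxcl16) did not overlap, being lower as 5.02% of stromal genes were. The median log2 fold change was -0.71, with -0.79, -0.68 and -0.13 in batches 1, 2 and 3, -0.16 without contact library 2 and -1.22 without contact library 3.

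Csf1, the growth factor on which macrophages depend and one of the 2 cytokine genes of highest level, gave 564, 1218 and 1127 CPM in contact libraries and 153, 618 and 835 CPM in transwell libraries. It was higher in contact within each batch while the groups overlapped (log2 fold change 0.83, SE 0.596, adjusted p = 0.805). Il34, the other ligand of the Csf1 receptor, gave 5.73, 1.43 and 0.524 CPM in contact libraries and 28.9, 8.12 and 1.06 CPM in transwell libraries, lower in contact within each batch. Cxcl12, which holds leukocytes in stromal niches, gave 848, 821 and 359 CPM in contact libraries and 775, 1234 and 1049.7 CPM in transwell libraries. For Cxcl12 the order of the groups differed between batches.

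The 10 stromal genes with a mean of at least 10 CPM, no overlap and the smallest unadjusted p among genes higher in contact cells had adjusted p of 0.489 to 0.79. Mcam, which encodes the mural cell adhesion molecule CD146 (chromosome 9, 44134469 to 44142727), lay at 19.6, 24 and 19.5 CPM in contact libraries, 2.94, 5.1 and 11 CPM in transwell libraries and 8.84, 8.84 and 5.68 CPM alone (log2 fold change 1.70, SE 0.417, unadjusted p = 0.00175). P4ha3, a prolyl hydroxylase subunit that acts on collagen, lay at 35.5, 48.9 and 34.3 CPM in contact libraries, 5.64, 10.7 and 20.6 CPM in transwell libraries and 12.1, 17.9 and 14.3 CPM alone (log2 fold change 1.65, SE 0.431). For both genes every contact library was above every transwell and every alone library, and the smallest gap lay in batch 3.

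Pdgfc, a platelet-derived growth factor ligand (chromosome 3, 81036416 to 81214040), lay at 20.7, 34.6 and 45.4 CPM in contact libraries, 11.2, 11.2 and 11.1 CPM in transwell libraries and 24.4, 24.2 and 15.6 CPM alone. The transwell libraries were nearly equal and below both other groups, so for this gene contact and alone overlapped (log2 fold change 1.54, SE 0.40, unadjusted p = 0.00258). Piezo2, a mechanically gated cation channel, lay at 14.6, 31.4 and 32.8 CPM in contact libraries and 3.13, 7.43 and 10.9 CPM in transwell libraries (log2 fold change 1.84, SE 0.51), with ratios of 2.05, 2.01 and 1.55 in batches 1, 2 and 3. Gpc6, a glypican of the cell surface, lay at 46.4, 63.3 and 43.5 CPM in contact libraries and 10.8, 20.4 and 30.6 CPM in transwell libraries (log2 fold change 1.27, SE 0.356). Both were above the transwell level in each contact library.

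Stard13 gave 24.6, 33.9 and 18.9 CPM in contact libraries and 5.03, 6.25 and 13.2 CPM in transwell libraries. Tuft1 gave 32.2, 40.4 and 9.57 CPM in contact libraries and 4.23, 9.0 and 5.98 CPM in transwell libraries, with contact library 3 close to the transwell values. The cytoskeletal pseudokinase gene Peak1 gave 34.7, 34.7 and 57.5 CPM in contact libraries and 22.4, 18.6 and 23.2 CPM in transwell libraries. Ints6l, an Integrator complex gene, gave 15.5, 15.3 and 16.9 CPM in contact libraries and 4.62, 4.82 and 10.7 CPM in transwell libraries. Acsm3, a mitochondrial acyl-CoA synthetase gene, was uneven: contact libraries 1 and 3 held 772 and 866 counts, contact library 2 held 4, and the transwell libraries held 1, 1 and 3. Of the 10 genes, 6 had all alone libraries below every contact library, and 7 have over 4000 exonic bases. The choice of genes with high contact values favours the first count, and no share over all stromal genes is given beside it.

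DESeq2 called 6 of these 10 genes, Mcam (adjusted p = 0.0184), Stard13 (0.0256), Tuft1 (0.025), Pdgfc (0.0483), P4ha3 (0.0484) and Acsm3 (0.00743), and 2 of the 10 lower ones below, Adm (0.0187) and Stard4 (0.0383). It called 36 of 17513 stromal genes in all. The named genes were picked by their edgeR p in the same libraries, which favours such calls, so these are no separate support. An estimate multiplied the pan-macrophage share of each group by the level in macrophages from the contact cultures. For the 10 higher genes it gave at most 4.34% of the difference (Ints6l), and for Cd84 it gave 93.1%. Adgre1, at 91.3%, belongs to the genes that set the share, so its value is no independent yardstick. The part of macrophage transcripts in these differences was not tested.

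The 10 lower genes chosen by the same rule had adjusted p of 0.603 to 0.805 and held Saa3. Adm encodes adrenomedullin, a vasodilator peptide that hypoxia and inflammatory cytokines induce. Adm (chromosome 7, 110627661 to 110629820) lay at 34.1, 16.1 and 37.4 CPM in contact libraries, 380.5, 112 and 51.5 CPM in transwell libraries and 225, 114 and 119 CPM alone (log2 fold change -2.72, SE 0.719, unadjusted p = 0.00291). All contact libraries were below all transwell and alone libraries, and the gap in batch 3 was small (log2 ratio -0.46).

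Ly6a, which encodes the stem cell antigen Sca-1 of adventitial fibroblasts, lay at 8.33, 6.65 and 4.45 CPM in contact libraries, 72.5, 18.3 and 11.6 CPM in transwell libraries and 36.1, 15.6 and 97.9 CPM alone. Every contact library was the lowest of its batch, and the highest values came from transwell library 1 and alone library 3, both of the short-gene profile. Tmem176b and Tmem176a, neighbouring membrane protein genes whose gene models overlap on opposite strands, were both lower in each contact library. Tmem176b lay at 296, 190.5 and 180.5 CPM in contact libraries and 937, 472 and 327 CPM in transwell libraries, and Tmem176a at 127, 94.5 and 90.5 CPM in contact libraries and 447, 255 and 189 CPM in transwell libraries. The sources used here do not give the strand setting of the counting, so their reads may be shared.

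H2-T22, a nonclassical class I gene with close copies in the same locus (chromosome 17, 36037128 to 36042747), lay at 49.7, 30.9 and 22.2 CPM in contact libraries, 83.3, 102 and 73.4 CPM in transwell libraries and 87.3, 74.2 and 86.6 CPM alone (log2 fold change -1.38, SE 0.385). Contact libraries were below both other groups. Zbp1, a sensor of Z-form nucleic acid that interferon induces, gave 6.21, 3.53 and 4.09 CPM in contact libraries and 32.3, 7.94 and 9.12 CPM in transwell libraries. Stard4, a sterol transport protein gene, gave 10.7, 7.38 and 6.26 CPM in contact libraries and 16.9, 20.2 and 12.2 CPM in transwell libraries. These differences were alike in direction in all 3 batches, as the rule of no overlap requires.

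Trio, a guanine nucleotide exchange factor, gave 9.08, 8.76 and 5.33 CPM in contact libraries and 23.3, 17 and 12.8 CPM in transwell libraries. Eno3, the muscle enolase, gave 38.7, 33.2 and 34.4 CPM in contact libraries and 58.2, 67.6 and 61.2 CPM in transwell libraries. In 9 of the 10 lower genes all alone libraries were above every contact library, and in 2 all alone libraries were below every transwell library. The genes were chosen for low contact values, which favours the first count, and no share over all stromal genes is given beside these counts.

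**Figure D3:**
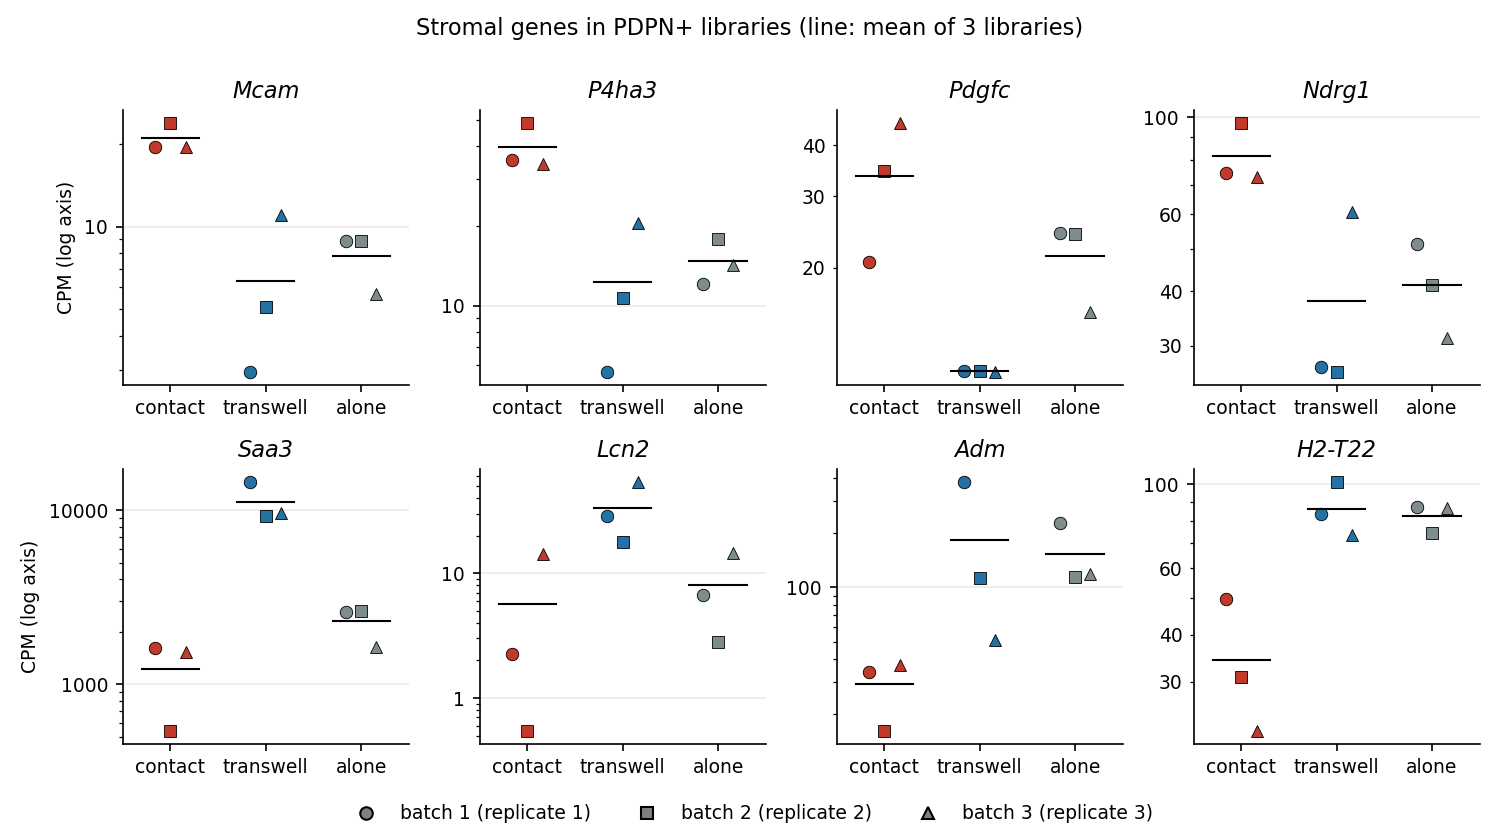
CPM (log axes, a scale per gene) of 8 stromal genes in contact, transwell and alone PDPN+ libraries, with 1 point per library shaped by batch and a line at the mean of 3. Mcam, P4ha3, Pdgfc and Ndrg1 are higher and Saa3, Lcn2, Adm and H2-T22 lower in each contact library than in each transwell library.

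Interferon-induced genes were lower on balance in contact cells. Of 14 stromal members of the type I interferon list tested, 0 were called, all 14 had a fitted log2 fold change below 0, 7 were lower in all 3 batches (18.1% of stromal genes were), 0 did not overlap and the median was -1.52 (range -2.03 to -0.31 over the alternative settings). Bst2, the membrane tether of budding viruses, gave 29.5, 11.5 and 11.7 CPM in contact libraries and 152, 35.3 and 20.1 CPM in transwell libraries (log2 fold change -2.06, SE 0.718, adjusted p = 0.805). Isg15, the ubiquitin-like modifier, gave 9.11, 3.86 and 1.83 CPM in contact libraries and 59.4, 9.59 and 4.53 CPM in transwell libraries. Transwell library 1 was the highest of the 6 for both, and without it the list median was -0.31.

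Class I presentation and interferon gamma genes gave a median log2 fold change of -0.33 over 12 stromal members, 4 of them lower in all 3 batches (18.1% of stromal genes were) and 0 called. Of the 20 genes on the list 8 were set apart, among them H2-K1, H2-D1 and B2m, so the median leaves these out. In batches 1, 2 and 3 the median was -0.51, -0.46 and -0.34. Irgm1 and Gbp2, interferon-induced GTPases and the members of highest level, had log2 fold changes of -0.36 (SE 0.393) and -0.29 (SE 0.531). Complement genes gave a median of -0.76 over 11 members, with 10 fitted below 0, 5 lower in all 3 batches (18.1% of stromal genes were) and 0 called. That median was -0.30, -0.67 and -1.35 in batches 1, 2 and 3, -1.29 without contact library 1 and -0.10 without both contact libraries from few cells. C3, the central component, gave 1342, 465 and 123 CPM in contact libraries and 1191, 833 and 584 CPM in transwell libraries, and Serping1, the C1 inhibitor, gave 713, 381 and 337 CPM in contact libraries and 1071, 593 and 659 CPM in transwell libraries. C3 was lower in contact in batches 2 and 3 and higher in batch 1, while Serping1 was lower within each batch.

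Matrix and contractile genes stood on the other side. All 18 members of the matrix and contractile list had a fitted log2 fold change at or above 0.00. In all 3 batches 11 were higher (18.8% of stromal genes were), and 1 was higher without overlap (5.41% were). Of the 18, 0 were called, and the median was 0.69 (range 0.27 to 1.06 over the alternative settings). The smooth muscle actin gene Acta2 gave 2930.4, 5128 and 4225 CPM in contact libraries and 1295, 1566 and 3083 CPM in transwell libraries (log2 fold change 1.01, SE 0.368, adjusted p = 0.805). Transwell library 3 reached above contact library 1, but within each batch the contact library was the higher. Thbs2, a thrombospondin of the matrix and the member without overlap, gave 106, 499 and 223 CPM in contact libraries and 3.78, 70.2 and 86.2 CPM in transwell libraries (log2 fold change 2.34, SE 0.948).

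Fn1, fibronectin, gave 8875, 9719.8 and 2744 CPM in contact libraries and 1815, 3556 and 4316 CPM in transwell libraries, higher in contact in batches 1 and 2 and lower in batch 3. Co-cultured macrophages held 8659 CPM of Fn1 themselves. Sparc, the other matrix gene of highest level, gave a log2 fold change of 0.00 (SE 0.37). The smooth muscle and pericyte list, which shares Cnn1 with the matrix list and holds Mcam, had a median of 1.38 over 8 members (range 0.67 to 2.16). Without overlap 1 was higher and 1 lower (5.41% and 5.02% of stromal genes were). The higher one was Mcam, and the lower one was Rgs5, a pericyte gene at or under 0.205 CPM in contact and 1.65 CPM in transwell libraries. Cnn1, calponin, gave 399, 789 and 763 CPM in contact libraries and 114, 164 and 534 CPM in transwell libraries, and the intermediate filament gene Des gave 592, 912 and 312 CPM in contact libraries and 145, 297 and 590.4 CPM in transwell libraries.

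Of 19 collagen chains tested, 0 were called, 3 were higher in every contact library than in every transwell library (5.41% of stromal genes were), 17 were fitted above 0 and 8 were higher in all 3 batches (18.8% of stromal genes were). Col5a1, a chain of the collagen that nucleates fibrils, gave 373.8, 687.4 and 500.6 CPM in contact libraries, 182.1, 161.2 and 336.4 CPM in transwell libraries and 173, 227 and 145 CPM alone (log2 fold change 1.15, SE 0.416, adjusted p = 0.805). Its partner Col5a2 gave 1225, 1357 and 1116 CPM in contact libraries, 592, 714 and 884 CPM in transwell libraries and 770.1, 888 and 434 CPM alone. Col11a1, of the same fibrillar class, gave 11.5, 24.5 and 26.8 CPM in contact libraries, 0.159, 0.748 and 5.88 CPM in transwell libraries and 2.08, 0.50 and 0.421 CPM alone. All 3 chains stood above both other groups in every contact library.

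The abundant chains did not separate. Col1a1 gave 8928, 14773 and 5650.3 CPM in contact libraries and 1029.6, 4429 and 7954 CPM in transwell libraries, and Col3a1 gave 17414, 15056 and 3472 CPM in contact libraries and 3905, 8317 and 8529 CPM in transwell libraries. Both were higher in contact in batches 1 and 2 and lower in batch 3. The list median of 0.71 ranged from 0.09 to 0.86 over the alternative settings and was lowest with the share of counts in long genes as a covariate, a setting added after the data were seen.

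Genes of adhesion and of the YAP and TEAD pathway, which responds to cell tension and contact, gave medians of 0.54 over 20 and 0.56 over 11 members, with 0 called (ranges 0.15 to 0.84 and 0.23 to 0.98). Ajuba, a LIM protein of adherens junctions, gave 75.4, 87.2 and 77.5 CPM in contact libraries and 16.2, 42.1 and 61.1 CPM in transwell libraries without overlap. Ccn2, a secreted matricellular protein long used as a YAP readout, gave 537, 1296 and 2613 CPM in contact libraries and 192, 341 and 1103 CPM in transwell libraries, higher in contact within each batch. Axl, a receptor tyrosine kinase for Gas6, gave 954, 1051 and 1040.4 CPM in contact libraries and 274, 730.3 and 878 CPM in transwell libraries without overlap, and its log2 fold change of 0.66 became 0.00 with the long-gene share as a covariate. Of the 11 YAP list members, 7 were higher in all 3 batches (18.8% of stromal genes were) and 2 did not overlap (5.41% were higher in this way).

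Among adhesion genes, Itgav, the integrin alpha V chain, gave 263, 298 and 328 CPM in contact libraries and 75.7, 222 and 248 CPM in transwell libraries without overlap. It was the 1 such member of 20 tested (5.41% of stromal genes were higher in this way). Itgb1, the most widely shared integrin beta chain, gave 1349, 2013 and 2129.7 CPM in contact libraries and 344, 1017 and 1479 CPM in transwell libraries, with co-cultured macrophages at 1439.6 CPM. Cdh11, the cadherin of fibroblasts, gave 930.5, 568 and 504 CPM in contact libraries and 415, 675 and 299.8 CPM in transwell libraries, in an order that differed between batches.

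Hypoxia and glycolysis genes had 20 stromal members tested, of which 15 were higher in contact in all 3 batches (18.8% of stromal genes were). Without overlap 1 was higher and 1 lower (5.41% and 5.02% of stromal genes were), and 0 were called. The median was 0.58, with 1.14, 0.91 and 0.21 in batches 1, 2 and 3, and it ranged from -0.20 to 1.12 over the alternative settings, being below 0 when contact libraries 2 and 3 were left out. Ndrg1, a stress-induced gene of hypoxic cells, gave 74.4, 97.2 and 73.1 CPM in contact libraries, 26.8, 26.1 and 60.8 CPM in transwell libraries and 51.2, 41.3 and 31.3 CPM alone (log2 fold change 1.06, SE 0.358, adjusted p = 0.805). Vegfa, the vascular growth factor, gave 110.5, 256 and 437 CPM in contact libraries and 21, 83.9 and 259 CPM in transwell libraries. In both groups library 3 was the highest for Vegfa, and contact was the higher one within each batch.

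The glycolytic genes Gapdh and Eno1, of highest level on that list, had log2 fold changes of 0.25 (SE 0.404) and 0.52 (SE 0.397). Of the 20 members 18 were fitted above 0, and Adm was the one that was lower without overlap.

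Stress lists lay nearer to the median of all stromal genes. In the unfolded protein and amino acid list the median was 0.27 over 16 members, and 0 were called. Without overlap 2 were higher (Herpud1 and Chac1) and 1 was lower (Sdf2l1), against 5.41% and 5.02% of stromal genes. Herpud1, of endoplasmic reticulum degradation, gave 112, 126 and 108 CPM in contact libraries and 55.4, 68.4 and 99 CPM in transwell libraries (log2 fold change 0.59, SE 0.235). The chaperone genes Hspa5 and Hsp90b1, of highest level, gave log2 fold changes of 0.44 (SE 0.396) and 0.22 (SE 0.374). Heat shock genes had a median of 0.02 over 10 members (range -0.12 to 0.05), with Hspa8 at -0.02 (SE 0.229) and Hsp90aa1 at -0.47 (SE 0.338).

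Immediate early genes, which respond to handling and growth factors within minutes, had a median of 0.26 over 17 members (range -0.18 to 0.34), with 0 called. Of the 17, 2 were higher without overlap (Jun and Egr3), against 5.41% of stromal genes. Jun gave 62, 72.7 and 78.3 CPM in contact libraries and 17.3, 31.3 and 45.4 CPM in transwell libraries (log2 fold change 1.14, SE 0.448). Klf6 and Ier3, of highest level, gave 0.44 (SE 0.334) and 0.27 (SE 0.645).

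Ligands and receptors of contact signalling were examined because the culture formats differ in contact. Of 20 Notch and ephrin genes tested 0 were called and 2 were higher without overlap (5.41% of stromal genes were). The median log2 fold change was 0.25, with 0.40, 0.41 and -0.18 in batches 1, 2 and 3. Notch2, a receptor, gave 23.7, 28.9 and 23.3 CPM in contact libraries and 10.3, 10.8 and 12.8 CPM in transwell libraries (log2 fold change 1.12, SE 0.521, adjusted p = 0.805). Hes1, a transcription factor that Notch induces, gave 12.5, 33.8 and 27.7 CPM in contact libraries and 7.02, 7.19 and 17.3 CPM in transwell libraries, higher in contact within each batch. Hey1, of the same class, was the other gene without overlap, at 2.33, 1.76 and 1.02 CPM in contact libraries and 0.498, 0.154 and 0.453 CPM in transwell libraries. The ephrin ligand Efnb2 and its receptor Ephb4, of highest level, gave -0.39 (SE 0.76) and 0.71 (SE 0.486).

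In the TGF-beta and BMP list 3 of 23 tested members were higher without overlap (5.41% of stromal genes were), namely Tgfb2, Tgfb3 and Ltbp2. Of the 23, 0 were called, 7 were higher and 8 lower in all 3 batches (18.8% and 18.1% of stromal genes were). The list median was 0.39 (range -0.14 to 0.57), with 0.32, 0.54 and -0.21 in batches 1, 2 and 3. Tgfb2, a ligand, gave 31, 35.7 and 27.2 CPM in contact libraries and 16, 19.9 and 11.8 CPM in transwell libraries. Tgfb3, another ligand, averaged 158 ± 50.8 CPM in contact and 64.2 ± 23 CPM in transwell libraries (SD, n = 3 each, log2 fold change 1.25, SE 0.479), with ratios of 2.15, 1.22 and 0.53 in batches 1, 2 and 3. Ltbp2, named for the family of latent TGF-beta binding proteins, gave 363, 405 and 304 CPM in contact libraries. The transwell libraries gave 156, 237 and 302 CPM, a narrow gap in library 3.

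On the BMP side, Id1 and Id3, transcription regulators that BMPs induce, were lower in contact within each batch though the groups overlapped. Id3 gave 700.1, 365 and 266 CPM in contact libraries and 2057, 763 and 334 CPM in transwell libraries, and Id1 gave 76.7, 43.3 and 36 CPM in contact libraries and 245, 82.9 and 47 CPM in transwell libraries. For Id3 the log2 fold change of -1.33 lay between -1.81 and -0.16 over the alternative settings. Inhba, the activin A subunit, gave 63.6, 224 and 1117 CPM in contact libraries and 20.6, 21.6 and 96 CPM in transwell libraries (log2 fold change 3.31, SE 1.44). Fstl1, the other gene of highest level, gave 0.69 (SE 0.366).

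Among 18 proteases and inhibitors tested, Mmp14 and Mmp11 were higher and Mmp3 lower without overlap (5.41% and 5.02% of stromal genes were). Of the 18, 0 were called (median 0.10, range -0.19 to 0.69). Mmp14, the membrane-bound collagenase, gave 485, 839 and 550.4 CPM in contact libraries and 146, 234 and 375 CPM in transwell libraries (log2 fold change 1.27, SE 0.423, adjusted p = 0.805). Mmp3, the cytokine-induced stromelysin, gave 23.6, 6.51 and 77.7 CPM in contact libraries and 119.9, 126 and 196 CPM in transwell libraries (log2 fold change -2.08, SE 1.79). The inhibitor genes Timp3 and Timp1, of highest level, gave 1.72 (SE 0.761) and 0.11 (SE 0.819), and Timp1 changed sign between settings.

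On the list of IGF, PDGF and FGF ligands, Pdgfc was the 1 stromal member of 20 tested without overlap (5.41% of stromal genes were higher in this way), and 0 were called. The median was -0.29, with 0.20, -0.66 and -0.88 in batches 1, 2 and 3, and it ranged from -0.70 to 0.05 over the alternative settings, the highest without transwell library 1. Igfbp3, a carrier of insulin-like growth factors, gave 998, 2803 and 37 CPM in contact libraries and 547, 1080.5 and 1045 CPM in transwell libraries, contact library 3 being far below the rest. Hbegf, an EGF receptor ligand, gave 19, 39.7 and 115 CPM in contact libraries and 6.84, 6.93 and 26 CPM in transwell libraries, higher in contact within each batch. Igfbp7 gave -0.75 (SE 0.507).

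Fibroblast identity genes had a median of -0.31 over 16 members (range -1.65 to 0.35), with 0 called. Pdgfrb was higher and Ly6a and Thy1 were lower without overlap (5.41% and 5.02% of stromal genes were). Pdgfrb, the receptor of mural cells and fibroblasts, gave 151, 178 and 189 CPM in contact libraries and 60.2, 111 and 131 CPM in transwell libraries. Thy1 gave 5.02, 5.31 and 2.71 CPM in contact libraries and 31.1, 6.14 and 5.43 CPM in transwell libraries. Contact library 2 and transwell library 3 were nearly level for Thy1.

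Mesothelial genes had a median of -1.16 over 13 members, with 8 lower in all 3 batches (18.1% of stromal genes were) and 0 without overlap or called. Within batches 1, 2 and 3 it was -0.37, -1.54 and -2.09. Upk3b, the uroplakin of mesothelium, gave 372, 32.6 and 0.0714 CPM in contact libraries, 716, 533 and 42.7 CPM in transwell libraries and 1109, 799.8 and 682 CPM alone. Upk1b gave 416, 59.7 and 0.762 CPM in contact libraries and 536, 438 and 43 CPM in transwell libraries. For both genes contact library 1 was far above contact libraries 2 and 3, which came from few cells, and the list median was 0.24 when those 2 libraries were left out.

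Of 4 adipocyte genes tested, Fabp4, Lpl and Plin1 were lower without overlap (5.02% of stromal genes were). Of the 4, 0 were called (median -2.58, range -2.95 to -1.10). Plin1 held only 5, 3 and 3 counts in contact libraries and 123, 17 and 6 in transwell libraries. Its log2 fold change of -3.82 thus rests on few reads, as does that of Adipoq (-3.26), and both enter the median. Lpl, the lipoprotein lipase, gave 180.1, 175 and 76.8 CPM in contact libraries, 346, 372 and 256 CPM in transwell libraries and 461, 450.2 and 416 CPM alone (log2 fold change -1.23, SE 0.662, adjusted p = 0.805). Fabp4, a fatty acid binding protein, gave 25.2, 13.5 and 65.3 CPM in contact libraries and 192, 68.6 and 108 CPM in transwell libraries. Macrophages from the contact cultures also expressed both genes, at 133 and 295 CPM. Adipoq, the adiponectin gene that defines adipocytes, stayed at or under 0.137 CPM in contact and 1.18 CPM in transwell libraries.

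Retinoid genes, which the series title points to, did not separate as a list. The median was 0.10 over 20 members (range -0.13 to 0.39). Without overlap 2 were higher (5.41% of stromal genes were), and 0 were called. Aldh1a2 gave 410.3, 322 and 178 CPM in contact libraries, 184, 239.7 and 293 CPM in transwell libraries and 264, 260.3 and 179.8 CPM alone (log2 fold change 0.30, SE 0.365). The receptor gene Rara gave 19.2, 22.8 and 18.4 CPM in contact libraries and 8.27, 14.1 and 15.8 CPM in transwell libraries without overlap.

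Medians of the metabolic and cycling lists took either sign among the alternative settings. Cholesterol synthesis gave -0.30 over 15 members (range -0.55 to 0.05), with Cyp51 and Sc5d at log2 fold changes of -0.25 (SE 0.478) and -0.19 (SE 0.315). Its 1 member lower without overlap (5.02% of stromal genes were) was Fdps, at 75.8, 54.1 and 64.3 CPM in contact libraries and 121, 109.6 and 91.4 CPM in transwell libraries. Prostanoid synthesis gave -0.03 over 9 members (range -0.47 to 0.86), with Ptgs1 at 0.58 (SE 0.384) and Ptgs2 at 2.49 (SE 1.63). The cell cycle list gave -0.06 over 25 members (range -0.71 to 0.30), with Rrm2 at 0.36 (SE 0.694) and Ccnb1 at -0.34 (SE 0.421). Birc5, the inhibitor of apoptosis survivin, was its 1 member lower without overlap (5.02% of stromal genes were). In each of these lists 0 members were called.

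**Figure D4:**
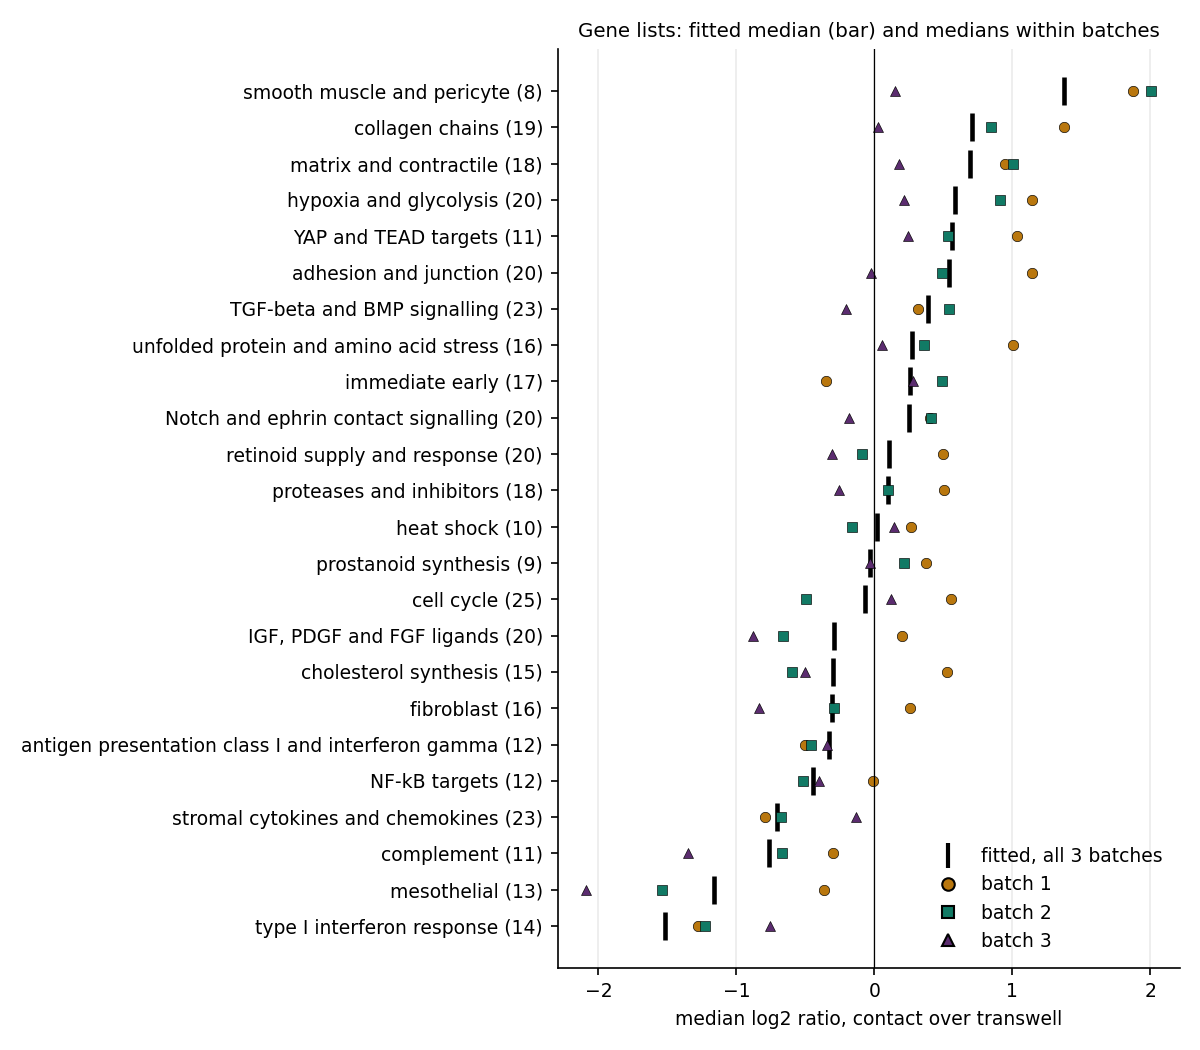
Median log2 ratio of contact over transwell (x axis) for gene lists with 8 or more tested stromal members, with the fitted median as a bar and the medians within each batch as points. Numbers in brackets are members tested. Matrix, collagen and smooth muscle lists lie to the right with batch 3 nearest to 0, and interferon, mesothelial and complement lists lie to the left in every batch.

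Long genes stood higher and short genes lower in contact cells, mostly in the batch of transwell library 1. Among stromal genes with at least 10 CPM, the median log2 fold change was -0.64 for 1108 genes of up to 2000 exonic bases and 0.21 for 5101 genes of over 4000. In batch 1 the medians were -1.05 and 0.76, in batch 2 they were -0.40 and 0.12, and in batch 3 they were -0.07 and 0.03. The short and long classes had 15.3% and 2.29% of genes lower without overlap. The median exonic length was 7464 bases in the collagen list and 5805.5 in the adhesion list, against 3202 in the interferon and 2236 in the cytokine list, and the part of length in those medians was not tested.

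**Figure D5:**
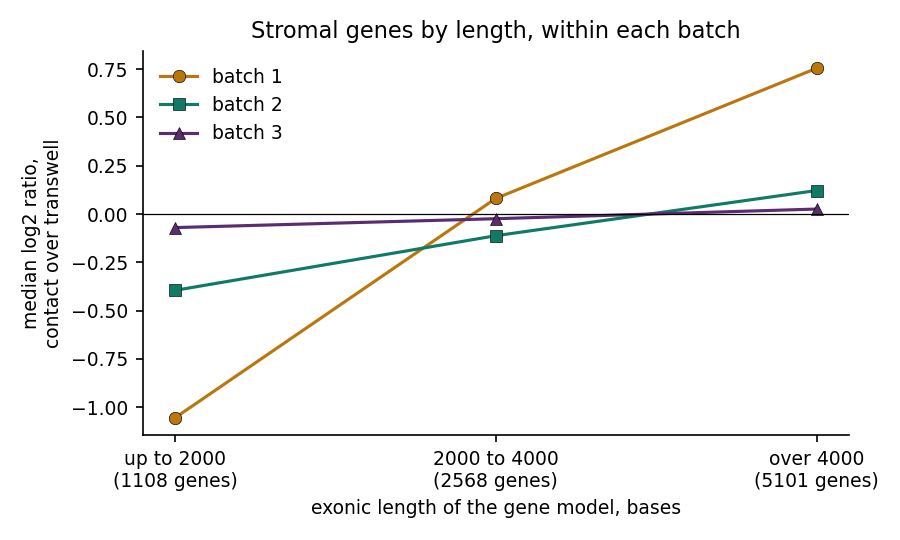
Median log2 ratio of contact over transwell (y axis) for stromal genes of at least 10 CPM in 3 classes of exonic length (x axis), with a line per batch. The line of batch 1 is steep, with -1.05 for the shortest and 0.76 for the longest class, and that of batch 3 almost flat.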

How the data were processed

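PolyA RNA of sorted PDPN+ cells was sequenced in 3 libraries a group. The authors deposited per library a raw read count per gene and an RPKM value adjusted for size factors (per the file headers); only the counts were tested. Per the submitters' processing notes reads were aligned with GSNAP to GRCm38; the sources used here do not give the aligner version, annotation, strand setting or read filters. Samples were grouped by title. Gene symbols came from a gene name table, exonic lengths and positions from GENCODE M21 (GRCm38). IDs without a symbol held at most 0.0629% of counts.

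Counts of all 12 PDPN+ libraries (contact, transwell, alone, and treated with BMS493) were fitted with edgeR 4.0.16 (R 4.3.3, TMM scaling, filterByExpr, quasi-likelihood test, group as the sole term). Benjamini-Hochberg adjustment ran over all genes tested, with a threshold of 0.05. A log2 fold change is contact over transwell, and its SE was taken from the F statistic. CPM are counts per TMM-scaled total over 30 libraries, and log2 ratios within a batch add 0.5 CPM. No overlap means that every library of one group lies above every library of the other. Exact permutation of 3 against 3 libraries cannot give a two-sided p below 0.1, so none is given. The scripts were tested on simulated counts. Replicates of a group differed by more than sampling noise.

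Alternatives were DESeq2 1.42.0, RLE size factors, no count filter, the 6 libraries alone, batch as a replicate block, and omitted libraries. Replicate numbers carry a batch label and pair the libraries: the deviations from group means of same-numbered libraries correlated at 0.39, 0.116 and 0.46 across genes. The PDPN+ comparison, gene lists and rules were chosen with earlier results of these data known. Genes were named by rule (10 a direction by p, 2 per list by level, and checks of the labels), and members without overlap, or otherwise of use to describe a list, after their values were seen. A few genes that the rule picks are not reported here.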

Additional observations from a re-analysis of the deposited data

How the results depend on the processing

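Neither edgeR with RLE size factors nor the count filter, the batch term or any omitted library gave a called stromal gene, and the fit of the 6 libraries alone gave 1. DESeq2 called 36 stromal and 101 set-apart genes, 137 in all. The count of called genes was 3 without a filter on low counts (all set apart), 4 with the 6 libraries alone (3 set apart), 0 without both contact libraries from few cells and 6 without transwell library 1 and alone library 3 (all set apart). With batch as a replicate block it was 0 (Cd84 at an adjusted p of 0.0858), and the block changed no other call. Leaving out 1 library at a time gave 0 to 5 called genes overall and among set-apart genes, the 5 without transwell library 1, and 0 among stromal genes. The pan-macrophage share of contact cells, 1.37% on average, was 1.10% as a mean over genes and 1.29% to 1.49% with 1 library left out, and the transwell share, 0.122%, was -0.01% to 0.19%. The cause of these differences was not tested. Adgre1, at an adjusted p of 0.232, gave 0.0286 without transwell library 1. With 3 libraries a group and a biological coefficient of variation of 0.573, small differences were not detectable, and large ones could also go uncalled. In the main edgeR fit Saa3 differed 9.45-fold at an adjusted p of 0.784 and Adgre1 15.8-fold at 0.232.

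Among named genes, all with adjusted p above 0.05, the log2 fold change reversed without both contact libraries from few cells for Timp1 (-1.23), Mpo (-1.57), Ptgs2 (-1.59), Rrm2 (-1.05), Ier3 (-0.45), Gapdh (-0.41), Hsp90b1 (-0.05), Eno1 (-0.04), Ccn2 (-0.02), Hspa8 (0.01), Sc5d (0.03), Irgm1 (0.10), Pdpn (0.13), Gbp2 (0.15), Cyp51 (0.29), Upk1b (0.30) and C3 (0.63). With the replicate block it reversed for Timp1 (-0.05), Mpo (-0.07) and Igfbp3 (-0.33). With the long-gene share as a covariate it reversed for Axl (0.00), Col3a1 (-0.02), Hspa5 (-0.04) and Hsp90b1 (-0.19), and without transwell library 1 and alone library 3 for Timp1 (-0.15), Rrm2 (-0.07), Hsp90b1 (-0.09) and Irgm1 (0.13), both added after the data were seen. Without the filter Hspa8 gave 0.02, and in the 6 libraries alone Sparc gave -0.01. With 1 library left out at a time, the values that changed sign ranged over -1.13 to 1.03 for Timp1, -1.24 to 0.04 for Efnb2, -0.57 to 0.06 for Cyp51, -0.42 to 0.55 for Ier3, -1.18 to 0.90 for Mpo, -0.11 to 0.07 for Hspa8, -0.21 to 0.45 for Sparc, -0.08 to 0.47 for Hsp90b1, -0.81 to 1.05 for Igfbp3, -0.51 to 0.76 for Rrm2, -1.63 to 0.00 for C3, -0.42 to 0.33 for Vcam1, -0.24 to 5.36 for Ptgs2, -0.66 to 0.03 for Ccnb1, -0.63 to 0.14 for Irgm1 and -0.11 to 0.55 for Gapdh. Mpo, the granulocyte peroxidase, averaged under 1 CPM in both groups.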
